A study of Homo sapiens with 21 samples.

Results

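The change that doxorubicin made in BJ fibroblasts was set against the change that the same cells showed late in serial passage. The contrast was the doxorubicin effect, doxorubicin against DMSO at passage 11 (P11), minus the P30 effect, passage 30 against passage 11. It used 12 of the 21 libraries of the series, taken by their labels, with 3 libraries in each of 4 groups. BJ is a human skin fibroblast line, and the study compared replicative and doxorubicin-induced senescence by poly(A) RNA-seq. The doxorubicin libraries came from P11 cells given 50 ng/ml doxorubicin, and the DMSO libraries from P11 cells given the vehicle. The P30 and P11 libraries came from cells grown to those passages, with no drug or vehicle named in their labels. No group carried a named transgene or deletion. The sources used here give no duration for the doxorubicin treatment. Replicates are labelled as separate samples, but no label says that they were grown apart, so the p-values speak for the spread among these libraries, which may be technical. P30 was taken rather than the later P33 because earlier results of these data put the lowest cell cycle transcripts there. The fall of cell cycle genes at P30 is therefore part of that choice and is given as a description.

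Cultured fibroblasts stop dividing after many passages as telomeres shorten, and this replicative senescence is held in place by the CDK inhibitors p21 and p16 and by the RB and DREAM repressors of cell cycle genes. Doxorubicin traps topoisomerase II on DNA and makes double-strand breaks throughout the genome, which activates ATM and p53. Both routes are known for loss of lamin B1, for p21 and for secreted cytokines, proteases and growth factors that together are called the senescence-associated secretory phenotype (SASP).

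Total counts per library ran from 21677851 to 27194352 with doxorubicin, from 18174331 to 24654064 with DMSO, from 12946375 to 19065832 at P30 and from 15001155 to 18993681 at P11. Mitochondrial transcripts took 6.66 to 7.17% of counts with doxorubicin and 5.9 to 6.34% with DMSO, against 4.67 to 5.1% at P30 and 4.42 to 5.6% at P11. The doxorubicin and DMSO libraries were counted in another way from the passage libraries: of 9429 genes contained within a longer same-strand gene, 0 had a read in the passage libraries and 3950 had one in the doxorubicin and DMSO libraries. Levels were therefore compared only within each pair of groups, and a gene that overlaps another on the same strand is named as such where it appears. Levels are CPM, read counts relative to library size, on library sizes scaled by TMM, the trimmed mean of M-values. Effects are log2 fold changes with their standard error. The difference of the effects is the doxorubicin effect minus the P30 effect, so a positive value means higher with doxorubicin. A call is an adjusted p under 0.05 by edgeR's quasi-likelihood test, with Benjamini-Hochberg adjustment over 16821 genes. Summed levels of 15 fibroblast markers ran from 43630 to 44720 CPM with doxorubicin and from 41400 to 42620 CPM with DMSO, against 25420 to 26160 CPM at P30 and 19440 to 20140 CPM at P11. COL1A1 and COL1A2 were the largest members in every group, so the sums do not speak for most members. Of the 15 markers, 3 were called higher and 9 lower with doxorubicin, and 7 higher and 6 lower at P30. Some members were low, with group means of 3.1 to 5.84 CPM for TWIST2, and for PDPN 0.166 CPM at P30 and 1.51 CPM at P11. Several defining markers of other skin cells were near 0 over the 12 libraries, with 0 reads for the keratinocyte keratin KRT5, 3 for the endothelial cadherin CDH5, 4 for the T cell receptor chain CD3E and 3 for the melanocyte enzyme TYR. Other members of those lists were expressed, with 75624 reads for the desmosome gene DSP, 13381 for MITF, 5331 for PPARG and 4067 for KRT10. Summed melanocyte and Schwann cell markers, nearly all of it MITF, were 56.12 to 57.6 CPM with doxorubicin and 81.12 to 84.09 CPM with DMSO, against 71.76 to 75.7 CPM at P30 and 27.13 to 32.12 CPM at P11; the part of such cells in the results was not tested.

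Doxorubicin and late passage moved many genes the same way, but the size differed for a large share of them and some groups moved in opposite directions. The difference of the effects was called higher with doxorubicin for 2287 genes, 13.6% of those tested, and lower for 2630, 15.6%. Of these, 766 and 677 differed at least 2-fold, and 11904 of the 16821 genes had no called difference. The lists' called and uncalled counts are to be read against these shares. The 16821 include 510 genes inside another on the same strand, a class with 0 reads in the passage libraries. Their P30 effect was thus fixed by the counting, and 0 of them had a called difference. The doxorubicin effect alone was called higher for 2817 genes (16.7%) and lower for 3461 (20.6%). The P30 effect alone was called higher for 3545 genes (21.1%) and lower for 3772 (22.4%). The median absolute effect over all genes was 0.23 with doxorubicin and 0.258 at P30. Calls of at least 2-fold were fewer with doxorubicin, 625 higher and 594 lower, against 840 and 908 at P30. Groups without overlap were common. Of the 16821 genes, all doxorubicin libraries were above all DMSO libraries for 3278 and below for 3917. All P30 libraries were above all P11 libraries for 4310 genes and below for 4574.

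Genes that rose in both numbered 1287 (7.65% of those tested), which is 45.7% of the genes raised by doxorubicin and 36.3% of those raised at P30. Genes that fell in both numbered 1680 (9.99%), which is 48.5% of the genes lowered by doxorubicin and 44.5% of those lowered at P30. Opposite calls were fewer: 304 genes rose with doxorubicin and fell at P30 (1.81%), and 493 fell with doxorubicin and rose at P30 (2.93%). The difference of the effects was called for 421 of the 1287 genes that rose in both and for 522 of the 1680 that fell in both. Across genes the 2 effects had a Pearson correlation of 0.316 and a Spearman correlation of 0.314. Without overlapping genes the Pearson correlation was 0.349. These are descriptions over genes, which are not independent, and the 2 effects share no library. The choice of P30 for its low cell cycle transcripts enters the genes that fell in both and the correlations. Of 65 G2 and M genes 64 were called the same way in both effects, and of 52 S phase genes 43. The part of cell cycle genes in the overlap and the correlations was not tested. In bulk RNA, fewer cells of a kind and less RNA per cell cannot be told apart, which holds for each level given here.

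**Figure D1:**
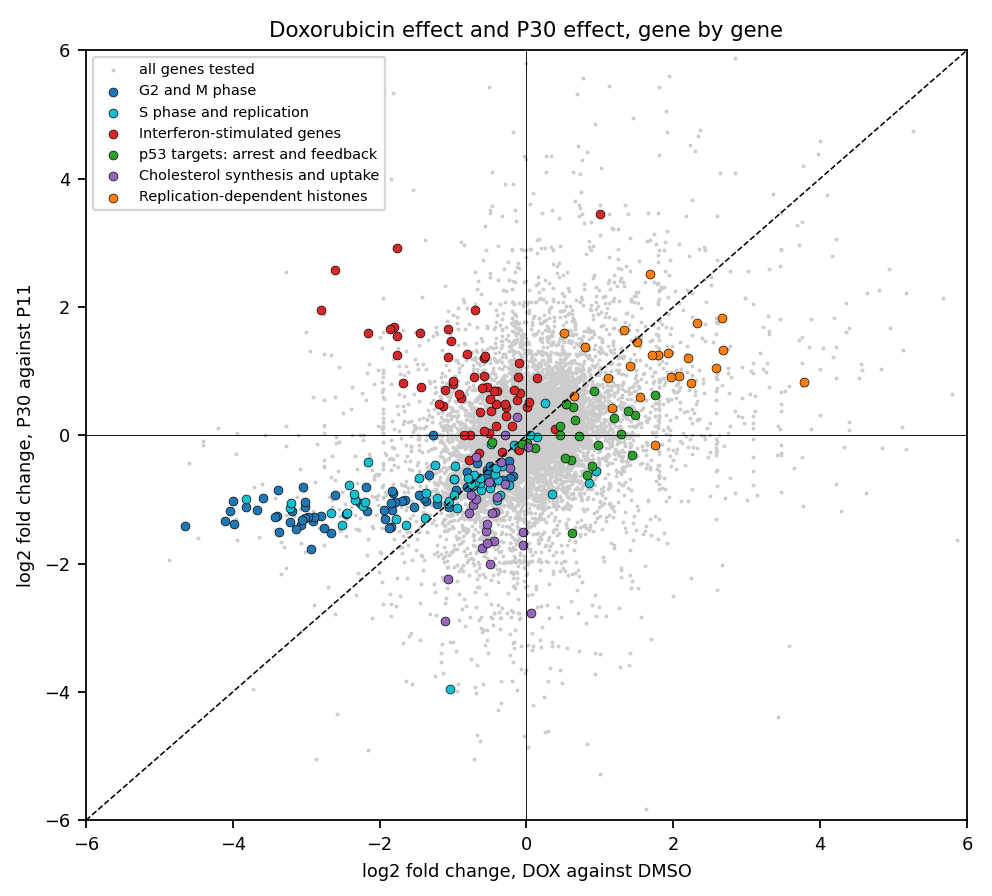
Each point is a gene, with its log2 fold change for doxorubicin against DMSO on the horizontal axis and for P30 against P11 on the vertical axis, 6 gene lists in colour and the line of equal effects dashed; 24 genes lie outside the axes. Genes of G2 and M phase spread to the left below 0, interferon-stimulated genes sit in the upper left, p53 targets to the right near 0 on the vertical axis, and cholesterol genes below the dashed line.

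Targets of p53 rose with doxorubicin and were split at P30. Of 23 measured p53 targets of arrest and feedback, 19 rose and 1 fell with doxorubicin, whereas 8 rose and 7 fell at P30. The difference was called higher with doxorubicin for 17 and lower for 1, and its median was 0.88, against 0.00 over all genes. The median effect of these 23 genes was 0.66 with doxorubicin and -0.01 at P30, the second so near 0 that its sign changed with DESeq2's size factors (0.01).

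CDKN1A, which encodes the CDK inhibitor p21, had 502, 498 and 464 CPM with doxorubicin against 142, 144 and 150.0 CPM with DMSO, and 325, 313 and 323 CPM at P30 against 199, 216 and 208 CPM at P11. It rose in both pairs with no overlap between groups, 3.36-fold with doxorubicin and 1.54-fold at P30, and the effects differed by 1.12 ± 0.07 (adjusted p = 2.2e-14). MDM2, the ubiquitin ligase that degrades p53 and that overlaps another gene on the same strand, had 449, 513 and 412 CPM with doxorubicin against 169, 163 and 160.4 CPM with DMSO, and 260.3, 269.9 and 232 CPM at P30 against 210.5, 197 and 203 CPM at P11, and its effects differed by 1.16 ± 0.09 (adjusted p = 1.7e-12).

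FDXR, the mitochondrial ferredoxin reductase, had 34.3, 32.8 and 29.5 CPM with doxorubicin against 11.7, 11.6 and 12.5 CPM with DMSO, and 17.8, 19.1 and 18.4 CPM at P30 against 21.4, 24.8 and 22.5 CPM at P11. It rose 2.7-fold with doxorubicin and fell 1.24-fold at P30, groups apart in both pairs, and the effects differed by 1.75 ± 0.12 (adjusted p = 7.3e-14). BTG2, an antiproliferative gene, had 47.6, 52.4 and 47.1 CPM with doxorubicin against 27.9, 27.2 and 27.6 CPM with DMSO, and 11.8, 12.7 and 9.76 CPM at P30 against 19.6, 15.7 and 18.2 CPM at P11, likewise higher with doxorubicin and lower at P30 with no overlap. E2F7, the repressor of E2F targets that p53 induces, also rose with the drug and fell at P30, with effects of 0.89 ± 0.09 and -0.49 ± 0.08. SESN2, the sestrin that restrains mTORC1, rose with doxorubicin (1.29 ± 0.14) and was not called at P30 (0.02 ± 0.17), and the difference itself was called (adjusted p = 2e-05). PLK2, a polo-like kinase, rose in both (0.92 ± 0.06 and 0.69 ± 0.07), and its difference of 0.22 was not called (adjusted p = 0.06), but was called without doxorubicin replicate 3 or P30 replicate 3, with an adjusted p as low as 0.032 over the alternatives.

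Among 16 targets of cell death, 12 rose and 1 fell with doxorubicin, and 5 rose and 4 fell at P30. The difference was called higher for 10 and lower for 2, with a median of 0.49. TP53I3, a quinone oxidoreductase, had 61.6, 60.7 and 61.1 CPM with doxorubicin against 37.5, 33.8 and 38.7 CPM with DMSO, and 34.3, 32.1 and 39.1 CPM at P30 against 53.2, 53.5 and 56.9 CPM at P11, so that it rose with the drug and fell at P30. BBC3, which encodes the BH3 protein PUMA and overlaps another gene, also rose with the drug and fell at P30, with effects of 0.77 ± 0.13 and -0.55 ± 0.13. TNFRSF10D, the TRAIL decoy receptor, rose with doxorubicin (0.85 ± 0.10) and was not called at P30 (-0.12 ± 0.09), with a difference of 0.97 (adjusted p = 9.2e-07). The TRAIL receptor TNFRSF10B rose in both, by 0.64 and 0.44, and its difference missed the threshold (adjusted p = 0.054) but passed it without doxorubicin replicate 2 or P30 replicate 1 (0.033 at the lowest over the alternatives).

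Among 25 targets of repair and metabolism, 21 rose and 0 fell with doxorubicin, 12 rose and 5 fell at P30, and the difference was called higher for 15 and lower for 2. CYFIP2, a subunit of the WAVE actin regulator, had 64.7, 61.6 and 65.7 CPM with doxorubicin against 20.8, 19.6 and 19 CPM with DMSO, and 22.5, 20.2 and 19.6 CPM at P30 against 28.2, 29.1 and 32.8 CPM at P11. It rose 3.22-fold with the drug and fell 1.44-fold at P30, a difference of 2.21 ± 0.10 (adjusted p = 1.7e-18). ACER2, an alkaline ceramidase, rose in both but further with doxorubicin, 1.92 ± 0.16 against 0.53 ± 0.15. RRM2B, the ribonucleotide reductase subunit used outside S phase, rose by 0.88 and 0.69, a difference that just missed the threshold (adjusted p = 0.053) but passed it without doxorubicin replicate 3, P30 replicate 2 or P11 replicate 2 (0.024 at the lowest over the alternatives). The p53-induced long noncoding RNA PURPL had 55.5, 50.7 and 52.9 CPM with doxorubicin against 7.53, 9.4 and 6.45 CPM with DMSO, and 46.3, 42.7 and 51.1 CPM at P30 against 18, 16.9 and 18.3 CPM at P11, a rise in both pairs that was larger with doxorubicin by 1.38 ± 0.13 (adjusted p = 1.8e-10).

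Cell cycle transcripts fell in both comparisons, and those of mitosis fell further with doxorubicin. Of 65 measured genes of G2 and M phase, 65 fell with doxorubicin and 64 at P30, with median effects of -2.17 and -1.07. The difference was lower with doxorubicin past the threshold for 47 and higher for 3, with a median of -1.14. The summed level of the list was 893.4 to 923.3 CPM with doxorubicin and 2126 to 2193 CPM with DMSO, against 1677 to 1697 CPM at P30 and 2968 to 3450 CPM at P11. Because P30 was picked for its low cell cycle transcripts, the differences for cell cycle genes are a description and not a test, and no p is given for them. The same holds for genes linked to proliferation in later lists, among them LMNB1, HMGB2, TOP2A, RBL1, BLM and the recombination repair genes. The counts past the threshold for G2 and M, S phase, E2F regulators and recombination repair are likewise descriptions only. So are the called and uncalled differences of their single genes. The part of cell cycle genes in the other differences given here was not tested.

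MKI67, the proliferation marker that coats mitotic chromosomes, had 9.96, 6.87 and 9.28 CPM with doxorubicin against 154, 166 and 132 CPM with DMSO, and 102, 109 and 108 CPM at P30 against 297, 258 and 252 CPM at P11. It fell 17.2-fold with doxorubicin and 2.53-fold at P30, and the effects differed by -2.76 ± 0.13. SPC25, a subunit of the NDC80 kinetochore complex, had 0.0807, 0.201 and 0.153 CPM with doxorubicin against 4.19, 3.03 and 3.64 CPM with DMSO, and 2.1, 2.68 and 3.41 CPM at P30 against 7.83, 7.24 and 6.19 CPM at P11. Its doxorubicin libraries held almost no reads, so its fold is imprecise, and the difference was -3.24 ± 0.41. BIRC5, which encodes survivin of the chromosomal passenger complex, had 0.847, 0.803 and 0.306 CPM with doxorubicin against 9.37, 11.8 and 11.4 CPM with DMSO, and 11.7, 10.5 and 10.7 CPM at P30 against 23.8, 24.6 and 18.5 CPM at P11. CDC20, the activator of the anaphase-promoting complex, had 0.121, 0.251 and 0.663 CPM with doxorubicin against 5.18, 4.97 and 6.28 CPM with DMSO, and 6.46, 7.36 and 6.35 CPM at P30 against 15.8, 17.1 and 12.6 CPM at P11. In all 4 genes the groups of each pair stayed apart, to be read against the counts over all genes given above. SPC24, the partner of SPC25, fell, with effects of -1.84 and -1.43 and CDCA3 with effects of -1.87 and -1.45, with differences of -0.42 ± 0.30 and -0.42 ± 0.26.

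The genes of S phase and replication fell in both by close medians. Of 52, 44 fell and 3 rose with doxorubicin, 46 fell and 1 rose at P30, and the medians were -0.87 and -0.78. The difference was lower with doxorubicin past the threshold for 18, where 15.6% of all genes were, and higher for 8, and its median was -0.04. Among the 35 members without an overlap, 15 were lower and 5 higher, with a median of -0.26. Single members still differed widely. RRM2, the S phase subunit of ribonucleotide reductase, had 2.86, 3.16 and 2.6 CPM with doxorubicin against 40.9, 39.6 and 41.7 CPM with DMSO, and 50.3, 49 and 47.7 CPM at P30 against 99, 106 and 87.9 CPM at P11, a difference of -2.83 ± 0.13. CDC6, which loads the MCM helicase at origins, had 3.15, 2.61 and 2.4 CPM with doxorubicin against 12.4, 12.6 and 11.8 CPM with DMSO, and 20.8, 20.3 and 19.6 CPM at P30 against 27.7, 27.8 and 25.9 CPM at P11. It fell 4.46-fold and 1.34-fold, a difference of -1.73 ± 0.13. MCM10 and TK1, a replication initiation factor and thymidine kinase, differed by -2.15 ± 0.27 and -2.08 ± 0.21. ORC1, of the origin recognition complex, fell, with effects of -1.38 and -1.29, and POLE2, of DNA polymerase epsilon, with effects of -1.64 and -1.40, with differences of -0.09 ± 0.26 and -0.24 ± 0.29.

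The promoters shown here are from cell cycle genes that fell and carry a known cell cycle element. The cell cycle genes homology region (CHR), TTTGAA, is bound by the DREAM and MuvB complexes, and E2F sites include TTTCCCGC and TTTGGCGC. Sequences are the 250 bases before and 50 after the annotated start, from RefSeq on GRCh38.p14, 5′ to 3′ on the gene's strand, with matches on either strand in capitals. SPC25 is at chr2:168890381-168890680 on the minus strand, MKI67 at chr10:128126374-128126673 on the minus strand and CDC6 at chr17:40287629-40287928 on the plus strand. SPC25 and MKI67 hold 2 CHR matches each, and CDC6 holds 1 match to an E2F site.
SPC25: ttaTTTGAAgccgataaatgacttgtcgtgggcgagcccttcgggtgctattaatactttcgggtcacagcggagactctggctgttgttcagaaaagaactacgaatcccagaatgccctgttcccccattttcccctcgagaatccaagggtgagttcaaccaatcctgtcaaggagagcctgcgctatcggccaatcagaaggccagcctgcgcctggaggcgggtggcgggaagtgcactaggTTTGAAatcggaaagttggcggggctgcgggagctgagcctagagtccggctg
MKI67: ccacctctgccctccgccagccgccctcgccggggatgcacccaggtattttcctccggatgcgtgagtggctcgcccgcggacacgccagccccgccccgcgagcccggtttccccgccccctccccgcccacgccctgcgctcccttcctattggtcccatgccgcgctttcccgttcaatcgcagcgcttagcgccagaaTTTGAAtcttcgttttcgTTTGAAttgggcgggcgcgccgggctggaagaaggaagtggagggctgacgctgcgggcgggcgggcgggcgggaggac
CDC6: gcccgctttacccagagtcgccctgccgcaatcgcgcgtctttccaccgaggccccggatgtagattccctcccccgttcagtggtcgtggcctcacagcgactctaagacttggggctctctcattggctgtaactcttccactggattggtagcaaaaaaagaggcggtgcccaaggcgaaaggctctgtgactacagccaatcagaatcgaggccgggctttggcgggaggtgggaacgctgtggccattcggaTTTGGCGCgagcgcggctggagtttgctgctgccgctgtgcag
Of 13359 protein-coding genes tested, 10690 had a promoter sequence. TTTGAA was found in 69.1% of 55 promoters of G2 and M phase genes, in 2.27% of 44 promoters of S phase genes and in 9.99% of all 10690. An E2F site was found in 3.64% of the G2 and M promoters, in 45.5% of the S phase promoters and in 3.63% of all. Matches are descriptions of letters in a window, found on either strand, and show nothing about binding. CCAAT stood in 74.5% of the G2 and M promoters and in 36.6% of all.

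Among 20 E2F and DREAM regulators the difference was called lower with doxorubicin for 7 and higher for 2. MYBL2, the B-MYB factor of mitotic transcription, had 0.887, 1 and 0.612 CPM with doxorubicin against 9.87, 11 and 12.6 CPM with DMSO, and 13.8, 15.1 and 14 CPM at P30 against 24.8, 27.6 and 22.3 CPM at P11, a difference of -2.91 ± 0.20. FOXM1, which drives the G2 and M programme, fell, with effects of -2.15 and -1.0. RBL1, which encodes p107 and overlaps another gene, fell, with effects of -0.71 and -0.90 with no called difference. Among CDK inhibitors, CDKN2A, the gene of p16 and ARF, had 5.69, 5.37 and 3.92 CPM with doxorubicin against 5.9, 4.91 and 5.16 CPM with DMSO, and 5.63, 7.42 and 6.43 CPM at P30 against 11.9, 13.3 and 10.5 CPM at P11. It was not called with doxorubicin and fell at P30, where the groups did not overlap, and the effects differed by 0.78 ± 0.20 (adjusted p = 0.0032). CDKN2B, the gene of p15, had 33.6, 35.3 and 39.8 CPM with doxorubicin against 18.7, 18.7 and 17.2 CPM with DMSO, and 19.2, 21.6 and 15.7 CPM at P30 against 16.3, 14.2 and 15.5 CPM at P11, a larger rise with doxorubicin (difference adjusted p = 0.0018); its P30 call was lost without P30 replicate 1 or 2 or P11 replicate 2 or 3, with an adjusted p up to 0.26 over the alternatives.

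Repair genes of homologous recombination and the Fanconi pathway fell with both, 19 of 31 with doxorubicin and 23 of 31 at P30. The difference was called for 10 (6 higher, 4 lower), where 13.6% of all genes were called higher and 15.6% lower. RAD51C, a recombination repair protein, rose with doxorubicin and was not called at P30, with 22, 21.7 and 20.8 CPM with doxorubicin against 13.9, 12.1 and 15.8 CPM with DMSO, and 16.8, 18.4 and 18 CPM at P30 against 18.1, 16.7 and 19.2 CPM at P11. RAD51AP1, another recombination protein, fell in both and further with the drug, with effects of -2.52 and -0.88. BLM, the helicase lost in Bloom syndrome, fell, with effects of -1.35 and -1.51, a difference of 0.15 ± 0.27 that was not called. In the list of break signalling, end joining and topoisomerases, 26 of 30 genes had no called difference, against 11904 of all 16821. TOP2A, the proliferation-linked topoisomerase that doxorubicin poisons and that overlaps another gene, had 15.4, 15.6 and 15.4 CPM with doxorubicin against 83.7, 84.2 and 85.7 CPM with DMSO, and 68.3, 69.2 and 70.0 CPM at P30 against 173, 174 and 139 CPM at P11, a deeper fall with the drug (difference -1.22 ± 0.10).

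Replication-dependent histone transcripts rose in both, although S phase transcripts fell. The assay selects poly(A) RNA, whereas the usual transcripts of these genes end in a stem-loop without a tail. Of 23 measured genes, 20 rose and 0 fell with doxorubicin and 18 rose and 0 fell at P30, and 9 had a larger rise with doxorubicin, 0 a smaller one (5 in place of 9 without P30 replicate 1 or without P11 replicate 2); 40 other members of the list did not pass the count filter. Their summed level was 279.8 to 300.5 CPM with doxorubicin and 85.5 to 96.7 CPM with DMSO, against 232.8 to 241.1 CPM at P30 and 102.7 to 111.1 CPM at P11. H4C8 had 18.1, 20.4 and 18.2 CPM with doxorubicin against 2.84, 2.12 and 3.93 CPM with DMSO, and 19.8, 19.9 and 21.1 CPM at P30 against 7.94, 7.58 and 8.6 CPM at P11, a difference of 1.34 ± 0.16 (adjusted p = 6.1e-08). H1-2, a linker histone, had 41.2, 45.7 and 38.8 CPM with doxorubicin against 10.1, 10.4 and 11.7 CPM with DMSO, and 29.6, 26.7 and 29.6 CPM at P30 against 15.4, 16.1 and 14.3 CPM at P11. Histone genes are near-identical copies, and the sources do not state how reads were split between them, so single genes are uncertain.

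Nuclear envelope and chromatin proteins fell in both, 25 of 33 with doxorubicin and 22 of 33 at P30. Differences were called higher for 7 and lower for 6, where 13.6% and 15.6% of all genes were. LMNB1, the gene of lamin B1, had 2.26, 3.06 and 2.45 CPM with doxorubicin against 19.8, 16.9 and 17.7 CPM with DMSO, and 14, 15.7 and 14.5 CPM at P30 against 43.7, 41.1 and 35.7 CPM at P11. It fell 7.07-fold with doxorubicin and 2.73-fold at P30 with no overlap, and the effects differed by -1.37 ± 0.15. HMGB2, a chromatin protein of proliferating cells, fell, with effects of -1.30 and -1.08, and the difference was not called but was without P11 replicate 1. HMGA1, a high mobility group protein whose gene overlaps another, fell less with doxorubicin (-0.66) than at P30 (-1.51).

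**Figure D2:**
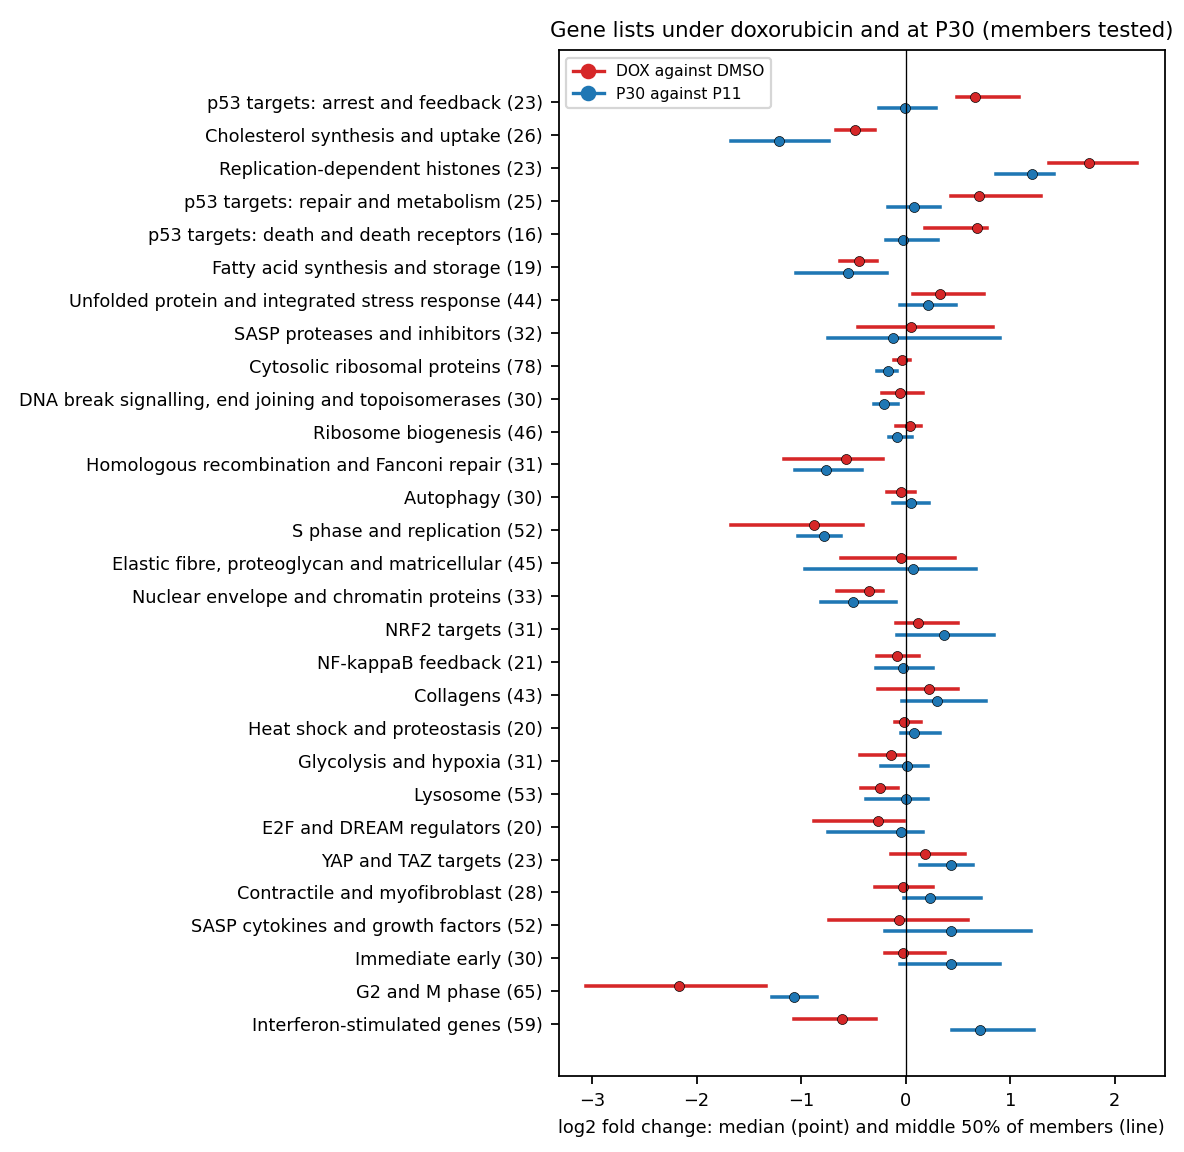
Median log2 fold change (point) and the middle 50% of members (line) for each gene list, doxorubicin against DMSO in red and P30 against P11 in blue, with the number of members tested in brackets and lists ordered by the median difference of the effects. Interferon-stimulated genes lie below 0 with doxorubicin and above 0 at P30 (medians -0.61 and 0.71), G2 and M genes are further below 0 with doxorubicin, and the 3 p53 lists are above 0 with doxorubicin and near 0 at P30.

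Interferon-stimulated genes moved in opposite directions. These genes, which interferon induces, include enzymes and membrane proteins that block viruses. Of 59 measured, 43 fell and 1 rose with doxorubicin, whereas 47 rose and 3 fell at P30. With doxorubicin 51 differences were called lower and 0 higher, and the median difference was -1.29; 33 genes were called in opposite directions. Their summed level was 3824 to 3924 CPM with doxorubicin and 5198 to 5221 CPM with DMSO, against 7116, 8035 and 8393 CPM at P30 and 3346, 4253 and 5861 CPM at P11. The sums of the groups did not overlap in either pair, but the P11 libraries were spread widely. P11 replicate 2 was the highest of them for RSAD2, OAS1, MX1, BST2, IFI44L and CMPK2. Without P11 replicate 2 the median difference was -1.56 with 52 called lower, and without P11 replicate 1 it was -1.11 with 48.

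RSAD2, the gene of viperin, had 0.968, 0.703 and 0.612 CPM with doxorubicin against 4.51, 4.43 and 5.34 CPM with DMSO, and 16, 21.5 and 32 CPM at P30 against 1.1, 7.53 and 2.53 CPM at P11. Every doxorubicin library was below every DMSO library and every P30 library above every P11 library, and the effects differed by -5.17 ± 0.60 (adjusted p = 2.2e-08). OAS1, an oligoadenylate synthetase, had 2.06, 2.36 and 2.14 CPM with doxorubicin against 14.2, 15.4 and 16.3 CPM with DMSO, and 39.7, 51 and 59.7 CPM at P30 against 5.69, 21.7 and 10.5 CPM at P11, a fall of 6.99-fold and a rise of 3.88-fold. MX1, a dynamin-like GTPase that restrains viruses, had 60.1, 59 and 57.2 CPM with doxorubicin against 208, 215 and 219 CPM with DMSO, and 604, 745 and 774 CPM at P30 against 96.3, 389 and 188 CPM at P11, with a difference of -3.52 ± 0.39 (adjusted p = 9.1e-09). BST2, the gene of tetherin, had 1.86, 3.31 and 2.7 CPM with doxorubicin against 9.42, 8.67 and 8.04 CPM with DMSO, and 18.7, 21.3 and 14.6 CPM at P30 against 1.15, 3.89 and 2.15 CPM at P11, a difference of -4.67 ± 0.33 (adjusted p = 4.4e-13). CMPK2, the mitochondrial nucleotide kinase next to RSAD2 on chromosome 2, and IFI44L differed by -3.74 ± 0.52 and -3.49 ± 0.43. The groups of each pair stayed apart for all 6 genes, again to be read against the counts over all genes. GBP4, a guanylate-binding protein that interferon gamma induces, gave the most negative of the named differences, -5.36 ± 0.30 (adjusted p = 1.4e-15), with 1.61, 2.76 and 1.48 CPM with doxorubicin against 6.81, 5.03 and 4.87 CPM with DMSO, and 14.6, 14.6 and 20.6 CPM at P30 against 1.1, 1.23 and 1.14 CPM at P11. STAT2 itself, which overlaps another gene, fell slightly in both, with effects of -0.34 and -0.25, with no called difference, and TRIM22, also overlapping and a target of p53 as well, rose in both, by 0.53 and 0.48.

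The next 3 promoters belong to genes that moved in opposite directions and hold GAAANNGAA, part of the interferon-stimulated response element. Matches on either strand are in capitals, and sequence, build and window are as for the cell cycle promoters. RSAD2 is at chr2:6865635-6865934 on the plus strand, BST2 at chr19:17405581-17405880 on the minus strand and MX1 at chr21:41420308-41420607 on the plus strand.
RSAD2: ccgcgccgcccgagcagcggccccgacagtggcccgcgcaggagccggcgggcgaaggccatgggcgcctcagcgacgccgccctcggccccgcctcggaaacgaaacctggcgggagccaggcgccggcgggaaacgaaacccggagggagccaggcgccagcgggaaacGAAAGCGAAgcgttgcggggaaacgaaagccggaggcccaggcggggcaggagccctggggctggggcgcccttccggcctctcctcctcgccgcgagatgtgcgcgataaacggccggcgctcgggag
BST2: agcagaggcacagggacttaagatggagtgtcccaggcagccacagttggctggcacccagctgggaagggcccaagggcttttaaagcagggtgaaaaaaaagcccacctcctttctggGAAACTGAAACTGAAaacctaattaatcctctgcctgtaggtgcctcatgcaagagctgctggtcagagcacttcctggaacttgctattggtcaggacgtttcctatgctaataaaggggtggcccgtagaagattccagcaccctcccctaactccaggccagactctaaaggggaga
MX1: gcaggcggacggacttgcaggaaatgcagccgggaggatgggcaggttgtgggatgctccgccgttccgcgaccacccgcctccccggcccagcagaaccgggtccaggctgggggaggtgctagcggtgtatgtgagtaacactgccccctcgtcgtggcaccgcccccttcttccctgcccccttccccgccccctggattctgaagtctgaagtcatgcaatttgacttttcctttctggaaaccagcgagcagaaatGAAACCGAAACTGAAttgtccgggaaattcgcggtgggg
The match in RSAD2 begins 79 bases before the start, and BST2 and MX1 each hold 2 matches that share bases. Of 47 interferon-stimulated genes with a promoter sequence, 68.1% held GAAANNGAA, against 6.73% of all 10690. Among the 373 genes with a promoter that fell with doxorubicin and rose at P30 the share was 11.8%, and among the 224 with the opposite pattern it was 6.25%. Interferon-stimulated genes are part of the 373, so the 2 shares are not independent.

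**Figure D3:**
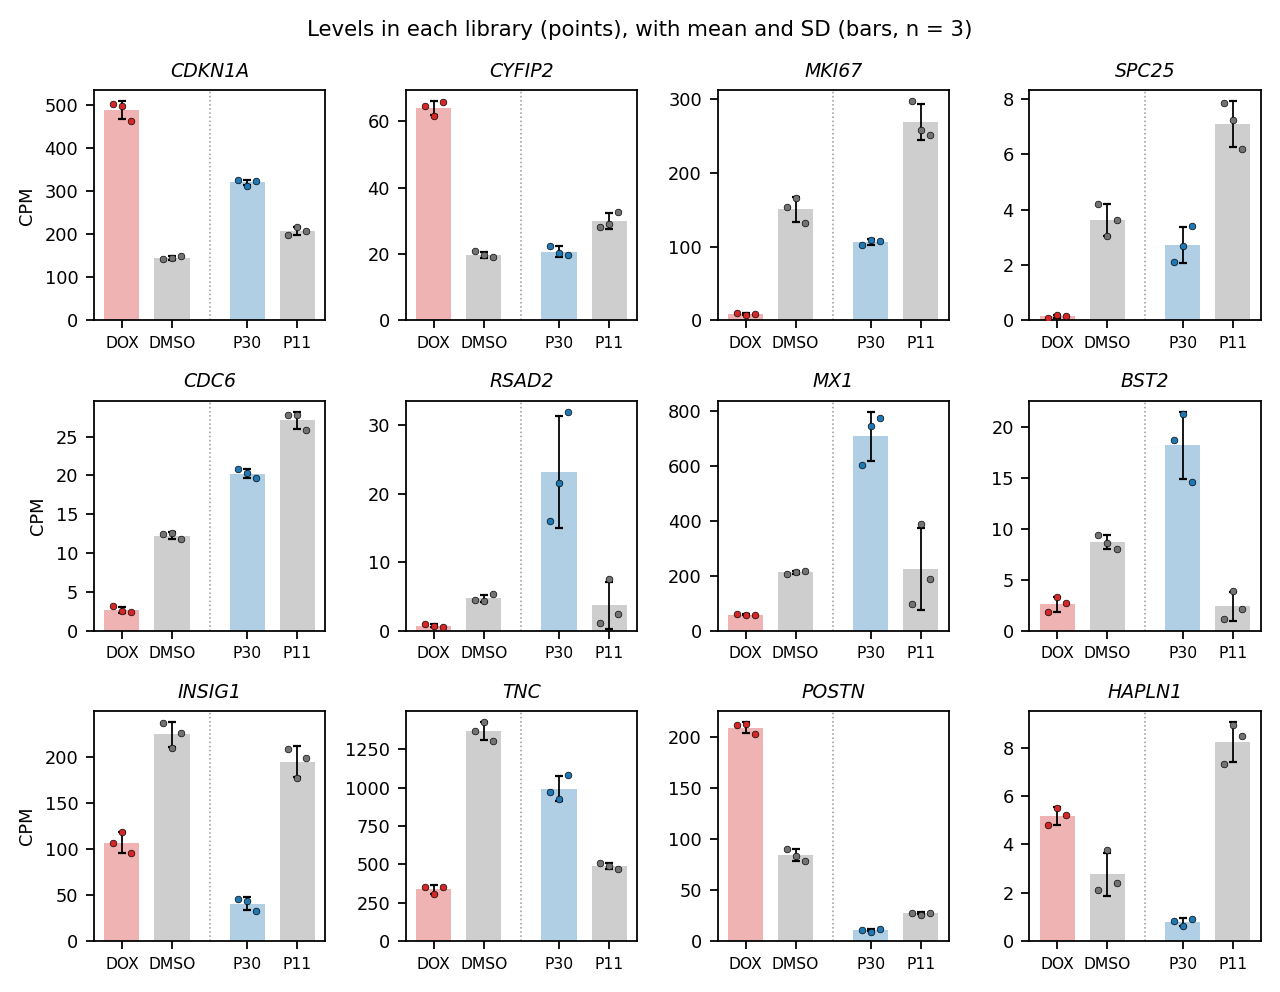
Levels in CPM of 12 genes in each of 3 libraries per group (points), with the group mean and SD (bars), doxorubicin and DMSO left of the dotted line and P30 and P11 right of it, to be compared only within a pair. CDKN1A is higher in the first group of both pairs, MKI67, SPC25 and CDC6 lower, and RSAD2, MX1, BST2 and TNC go down with doxorubicin and up at P30, whereas CYFIP2, POSTN and HAPLN1 do the reverse.

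Secreted factors were split with doxorubicin and mostly rose, where called, at P30. Of 52 SASP cytokines and growth factors, 16 rose and 17 fell with doxorubicin, and 25 rose and 8 fell at P30. With doxorubicin 22 differences were called lower and 11 higher, with a median of -0.39. IL1A, the upstream cytokine of the SASP, had 10.2, 10.6 and 11.5 CPM with doxorubicin against 4.33, 4.43 and 3.81 CPM with DMSO, and 1.22, 0.789 and 1.01 CPM at P30 against 1.46, 1.28 and 1.2 CPM at P11. It rose 2.55-fold with doxorubicin, was not called at P30, and differed by 1.75 ± 0.30 (adjusted p = 2e-05). CXCL8, the gene of interleukin 8, had 1.05, 1.05 and 0.51 CPM with doxorubicin against 2.7, 2.49 and 2.41 CPM with DMSO, and 1.38, 1.26 and 1.01 CPM at P30 against 0.313, 0.936 and 0.316 CPM at P11; levels were low in all 4 groups, and it fell with doxorubicin and rose at P30. The P30 call of CXCL8 was lost without P30 replicate 1, P11 replicate 1 or P11 replicate 3 (adjusted p up to 0.086), with effects from 0.90 to 1.95 over the alternatives. CXCL1, a chemokine of neutrophils, had 7.95, 7.33 and 7.39 CPM with doxorubicin against 16.3, 15.8 and 18.5 CPM with DMSO, and 5.63, 6.84 and 6.97 CPM at P30 against 3.66, 3.99 and 3.1 CPM at P11, opposite in the same way with no overlap in either pair. IL6 fell in both, with effects of -0.54 and -1.17, and its difference was not called (adjusted p = 0.081) but was without P30 replicate 2 or P11 replicate 1 (0.016 at the lowest over the alternatives).

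PTX3, a soluble pattern recognition protein, fell by 0.67 with doxorubicin and rose by 1.69 at P30 (difference adjusted p = 8.7e-15). EREG, the EGF receptor ligand epiregulin, had 94.8, 101 and 91.3 CPM with doxorubicin against 114, 105 and 106 CPM with DMSO, and 542, 535 and 547 CPM at P30 against 161, 175 and 157 CPM at P11. It was not called with the drug, rose 3.29-fold at P30, and differed by -1.90 ± 0.15 (adjusted p = 2.4e-12). GDF15, a stress-induced TGF-beta family hormone that overlaps another gene, rose in both and less with doxorubicin, 0.83 ± 0.12 against 1.34 ± 0.11, a difference lost without DMSO replicate 3, P30 replicate 2 or P11 replicate 1 (adjusted p up to 0.057). FGF2, which overlaps another gene, had 586, 626 and 509 CPM with doxorubicin against 236, 225 and 227 CPM with DMSO, and 508, 499 and 526 CPM at P30 against 212, 221 and 222 CPM at P11, rises of 2.5-fold and 2.34-fold with no called difference. Insulin-like growth factor binding proteins rose in both, 5 of 6 in each, and 5 of the 6 differences were called lower with doxorubicin. IGFBP3, the main carrier of IGF, had 1785, 1852 and 1852 CPM with doxorubicin against 782, 799 and 843 CPM with DMSO, and 727, 786 and 752 CPM at P30 against 159, 191 and 182 CPM at P11, a difference of -0.91 ± 0.09 (adjusted p = 6.6e-10). IGFBP6 was the exception, with a rise of 0.56 with the drug and a fall at P30 (-0.23) that was not called without P11 replicate 2 (adjusted p = 0.098).

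Proteases and their inhibitors were split, with 11 of 32 rising and 12 falling under doxorubicin, 10 rising and 15 falling at P30, and 11 differences called higher and 9 lower. MMP1, the interstitial collagenase, had 297, 319 and 312 CPM with doxorubicin against 961, 977 and 1032 CPM with DMSO, and 118, 135 and 123 CPM at P30 against 1107, 1236 and 1207 CPM at P11, a fall in both that was smaller with doxorubicin by 1.56 ± 0.10 (adjusted p = 1.9e-14). MMP3, stromelysin 1, had 128, 140.1 and 136 CPM with doxorubicin against 55.5, 51.1 and 58.8 CPM with DMSO, and 436, 484 and 387 CPM at P30 against 370.4, 418 and 424 CPM at P11. It rose with doxorubicin with no overlap, was not called at P30, where the groups overlapped (adjusted p = 0.034 without P30 replicate 3), and differed by 1.18 ± 0.10 (adjusted p = 3.7e-11). SERPINE2, the inhibitor protease nexin 1, rose with doxorubicin and fell at P30, with 2437, 2660.5 and 2453 CPM with doxorubicin against 1413, 1439 and 1427 CPM with DMSO, and 1019, 1107 and 948 CPM at P30 against 2005, 2027 and 2109.9 CPM at P11. PLAT, tissue plasminogen activator, was not called with doxorubicin (-0.14 ± 0.07) and rose at P30 (1.77 ± 0.07). Of 21 NF-kappaB feedback genes, 13 had no called difference, against 11904 of all 16821.

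Stress response genes mostly rose, where called, in both. Of 44 genes of the integrated stress response or the unfolded protein response, 30 rose and 3 fell with doxorubicin and 25 rose and 9 fell at P30, and the difference was called higher for 16 and lower for 5. PSAT1, a serine synthesis enzyme induced by ATF4, had 126, 135 and 119.8 CPM with doxorubicin against 40.0, 34.3 and 38.1 CPM with DMSO, and 51.9, 51.1 and 52 CPM at P30 against 16.6, 18.1 and 17.3 CPM at P11. It rose 3.38-fold and 2.98-fold, a difference of 0.18 ± 0.11 that was not called (adjusted p = 0.22). CHAC1, which breaks down glutathione, rose by 1.08 and 0.85, also with no called difference. DDIT4, the mTORC1 inhibitor REDD1, had 25.9, 27.9 and 28.9 CPM with doxorubicin against 16.1, 16.5 and 18.3 CPM with DMSO, and 11.9, 7.89 and 9.61 CPM at P30 against 20.3, 15 and 17.1 CPM at P11, a rise with the drug and a fall at P30. SLC7A5, an amino acid transporter that overlaps another gene, rose by 1.73 and 0.82, further with doxorubicin (adjusted p = 6.8e-08).

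Of 31 NRF2 targets, 14 rose and 5 fell with doxorubicin and 16 rose and 7 fell at P30, with 9 differences called higher and 11 lower. HMOX1, heme oxygenase 1, had 21.8, 22.9 and 24.1 CPM with doxorubicin against 31.2, 29.3 and 31.7 CPM with DMSO, and 62.9, 61.7 and 55.7 CPM at P30 against 26.1, 28 and 26 CPM at P11. It fell with doxorubicin and rose 2.26-fold at P30, a difference of -1.60 ± 0.11 (adjusted p = 7.1e-14). Heat shock genes had 15 of 20 differences not called, against 11904 of all 16821, with 5 lower with doxorubicin and 0 higher.

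Cholesterol genes fell in both, and the fall at P30 was the larger one. SREBP2 drives these genes when sterols are low. Of 26, 20 fell with doxorubicin and 21 at P30, 0 rose in either, and the medians were -0.48 and -1.21. The difference was called higher with doxorubicin for 18 and lower for 0. INSIG1, which holds SREBP in the endoplasmic reticulum, had 106, 118 and 95.8 CPM with doxorubicin against 237, 209.6 and 226 CPM with DMSO, and 45.5, 43.7 and 32.8 CPM at P30 against 209, 176 and 199 CPM at P11. It fell 2.1-fold with doxorubicin and 4.75-fold at P30, with a difference of 1.18 ± 0.15 (adjusted p = 9e-08). MSMO1, a sterol oxidase, had 55, 58.1 and 49.3 CPM with doxorubicin against 54, 55.9 and 57.9 CPM with DMSO, and 31.5, 26.8 and 27.4 CPM at P30 against 84.2, 77.9 and 82 CPM at P11; the doxorubicin and DMSO libraries overlapped, and the P30 libraries were all below P11. ACAT2, which makes acetoacetyl-CoA, fell, with effects of -0.49 and -2.01. LSS, lanosterol synthase, fell, with effects of -0.75 and -0.93, and its difference was not called (adjusted p = 0.18).

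Fatty acid genes fell with 13 of 19 called under doxorubicin and 15 at P30, and 11 of the 19 overlap another gene on the same strand. SCD, the stearoyl-CoA desaturase, had 564, 506 and 557 CPM with doxorubicin against 1243, 1293 and 1227 CPM with DMSO, and 269, 279 and 259.5 CPM at P30 against 1044, 932 and 1006 CPM at P11, a deeper fall at P30 (difference 0.68 ± 0.08, adjusted p = 8.1e-08). SREBF1, the gene of SREBP1, which overlaps another gene, fell, with effects of -0.81 and -0.79 with no called difference. Cytosolic ribosomal protein transcripts fell at P30 for 39 of 78 and with doxorubicin for 8, and 19 differences were called higher with doxorubicin, 0 lower. These counts turned on single libraries: with doxorubicin 15 fell without doxorubicin replicate 2, 5 fell and 6 rose without doxorubicin replicate 1, and 4 fell and 10 rose without DMSO replicate 3. Higher differences numbered 11 without doxorubicin replicate 2, DMSO replicate 2 or P11 replicate 2, and 12 without P30 replicate 2. The shifts were small, with medians of -0.04 with doxorubicin (0.01 without DMSO replicate 3) and -0.17 at P30, and these genes have many processed pseudogenes that can share their reads. Of the 78 genes, 41 overlap another on the same strand. Among the 37 without an overlap, 21 fell at P30 and 3 with doxorubicin, and 7 differences were called higher and 0 lower. RPLP0 had 1889, 2146 and 2310.4 CPM with doxorubicin against 1834, 2107 and 2183 CPM with DMSO, and 852, 861 and 892 CPM at P30 against 1079.8, 1176 and 1207 CPM at P11, a difference of 0.46 ± 0.10 (adjusted p = 0.00029). Of 46 ribosome biogenesis genes, 40 had no called difference, against 11904 of all 16821.

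Matrix genes moved strongly one by one, without a common direction. Of 43 collagens and collagen enzymes, 22 rose and 12 fell with doxorubicin, 23 rose and 9 fell at P30, and 18 differences were called lower with doxorubicin and 5 higher. COL8A1, a short-chain collagen, rose in both but by 0.51 with doxorubicin and 2.17 at P30. COL4A6, a basement membrane chain, had 1.9, 2.01 and 1.68 CPM with doxorubicin against 0.406, 0.243 and 0.352 CPM with DMSO, and 7.13, 7 and 7.44 CPM at P30 against 1.25, 0.936 and 1.9 CPM at P11, rises of 5.39-fold and 5.39-fold. Of 45 elastic fibre, proteoglycan and matricellular genes, 15 differences were called higher and 18 lower.

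TNC, the wound matrix protein tenascin C, had 354, 304 and 354 CPM with doxorubicin against 1369, 1426 and 1306 CPM with DMSO, and 973, 927 and 1082 CPM at P30 against 512, 492 and 473 CPM at P11. It fell 4.05-fold with doxorubicin and rose 2.02-fold at P30, groups apart in both pairs, a difference of -3.03 ± 0.11 (adjusted p = 4.6e-20). MFAP4, a microfibril protein, had 90.3, 92.3 and 91.3 CPM with doxorubicin against 179, 161 and 185 CPM with DMSO, and 51.3, 44.9 and 58.4 CPM at P30 against 15.2, 13.1 and 14.5 CPM at P11, opposite in the same way. POSTN, the matricellular protein periostin, had 211, 213 and 202 CPM with doxorubicin against 90.3, 83.4 and 78.6 CPM with DMSO, and 11.1, 9.47 and 11.6 CPM at P30 against 27.4, 26.1 and 27.9 CPM at P11. It did the reverse, a rise of 2.48-fold with the drug and a fall of 2.54-fold at P30 (difference 2.66 ± 0.13, adjusted p = 2.3e-17). HAPLN1, the link protein of hyaluronan and proteoglycans, had 4.8, 5.52 and 5.2 CPM with doxorubicin against 2.12, 3.76 and 2.41 CPM with DMSO, and 0.829, 0.631 and 0.93 CPM at P30 against 7.31, 8.91 and 8.47 CPM at P11, the most positive of the named differences at 4.31 ± 0.29 (adjusted p = 1.4e-13).

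Contractile genes were split with doxorubicin and mostly rose, where called, at P30. Of 28, 10 rose and 12 fell with doxorubicin, 14 rose and 5 fell at P30, and 18 differences were called lower with doxorubicin and 5 higher. CNN1, calponin, had 36.1, 36.1 and 39.4 CPM with doxorubicin against 27.6, 33 and 31.9 CPM with DMSO, and 90.7, 88.1 and 92.7 CPM at P30 against 27.6, 29.5 and 25.6 CPM at P11, a rise in both that was smaller with doxorubicin (difference -1.43 ± 0.10, adjusted p = 4.4e-13), the drug's own call being lost without DMSO replicate 1 (0.065). ITGA11, the collagen-binding integrin chain, rose by 0.25 with the drug and 2.92 at P30. Among 23 YAP and TAZ targets, 11 rose with doxorubicin and 17 at P30, and 11 differences were lower and 1 higher. CCN2, connective tissue growth factor, had 347, 389 and 353 CPM with doxorubicin against 122, 116 and 116 CPM with DMSO, and 897, 977 and 979.5 CPM at P30 against 182, 183 and 181 CPM at P11, 3.07-fold against 5.23-fold. CRIM1, another of them, rose by 0.60 and 0.64, and ANKRD1 by 1.29 and 1.34, with no called differences. Fibroblast markers were themselves not constant: LUM, the proteoglycan lumican, fell by 0.33 with doxorubicin and rose by 0.90 at P30, and FAP, fibroblast activation protein, fell, with effects of -0.22 and -1.11, less with the drug.

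Lysosomal genes fell with doxorubicin, 33 of 53 with 5 rising, whereas at P30 16 rose and 19 fell; 20 differences were called lower and 6 higher. GLB1, the gene of the beta-galactosidase whose activity is used to stain senescent cells, overlaps another gene and had 48, 48.4 and 53.3 CPM with doxorubicin against 72.2, 70.3 and 70.6 CPM with DMSO, and 41.9, 44.6 and 43.9 CPM at P30 against 45, 41 and 43.2 CPM at P11. It fell with doxorubicin and was not called at P30, where the groups overlapped, and the effects differed by -0.53 ± 0.09 (adjusted p = 1.4e-05). LIPA, lysosomal acid lipase, was not called with the drug (-0.12 ± 0.06, though adjusted p = 0.026 without doxorubicin replicate 2) and fell at P30 (-1.53 ± 0.06). Of 30 autophagy genes, 24 had no called difference, against 11904 of all 16821. GABARAPL1, an ATG8 family member, rose by 0.74 with doxorubicin and 1.49 at P30.

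Among 17 BCL2 family genes, 5 differences were called higher and 6 lower. Of 30 immediate early genes, 9 rose with doxorubicin and 16 at P30, and 13 differences were lower and 4 higher; KLF4, a zinc finger factor, was not called with the drug (0.16 ± 0.08) and fell at P30 (-1.09 ± 0.10). Of 31 glycolysis and hypoxia genes, 16 of which overlap another gene on the same strand, 16 fell with doxorubicin and 10 at P30. SLC2A1, the glucose transporter GLUT1, which overlaps another gene, fell by 0.34 with doxorubicin and rose by 0.75 at P30. HOTAIR, a long noncoding RNA of the HOXC cluster, rose in both, 0.54 ± 0.07 against 1.62 ± 0.07. Of 15 shelterin and telomerase genes, 12 had no called difference, against 11904 of all 16821. Of 13 mitochondrially encoded mRNAs, 3 differences were higher and 1 lower, where 13.6% of all genes were called higher and 15.6% lower. In a panel of 18 genes often used to mark senescence, among them CDKN1A, LMNB1, HMGB2 and IL6, 9 rose and 7 fell with doxorubicin and 9 rose and 5 fell at P30, with 7 differences called higher and 6 lower.

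ABCB1, the drug efflux pump that exports doxorubicin, rose in both and far more at P30. It had 1.41, 0.853 and 1.38 CPM with doxorubicin against 0.18, 0.485 and 0.352 CPM with DMSO, and 24, 23.3 and 25.1 CPM at P30 against 0.627, 0.886 and 0.632 CPM at P11. The rise was 3.74-fold with doxorubicin, from few reads, and 33-fold at P30, and the effects differed by -3.14 ± 0.51 (adjusted p = 1e-05). RUNDC3B lies across ABCB1 on the opposite strand and followed it, 1.45 ± 0.42 and 4.95 ± 0.21. Its mean levels were 0.744 CPM with doxorubicin, 0.284 CPM with DMSO, 14.8 CPM at P30 and 0.485 CPM at P11. Whether strand was used in counting is not stated in the sources, so reads of the 2 genes cannot be told apart. ABCB4, the phospholipid transporter beside it, had 6.09, 6.67 and 5.96 CPM with doxorubicin against 16.1, 17.1 and 17.5 CPM with DMSO, and 22.6, 22.9 and 20.4 CPM at P30 against 7.26, 6.94 and 6.83 CPM at P11, lower with the drug and higher at P30 with a difference of -3.09 ± 0.14 (adjusted p = 4.5e-18). ADAM22, further along, also fell with the drug (-0.66 ± 0.23) and rose at P30 (2.41 ± 0.20). Of the genes between and around them, CROT, DBF4, SLC25A40 and SRI had no called difference. Nor had DMTF1 and TMEM243, which each overlap another gene on the same strand. The long noncoding gene TP53TG1 differed by 0.64 ± 0.15 (adjusted p = 0.0012), with a rise with doxorubicin (0.84 ± 0.10) and no call at P30 (0.20 ± 0.11), and ELAPOR2 was not called with doxorubicin (0.13 ± 0.17) and fell at P30 (-2.35 ± 0.27). These neighbours were chosen after their values were seen. Among 12 ABC drug transporters, 4 differences were lower with doxorubicin and 1, ABCC3, higher.

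**Figure D4:**
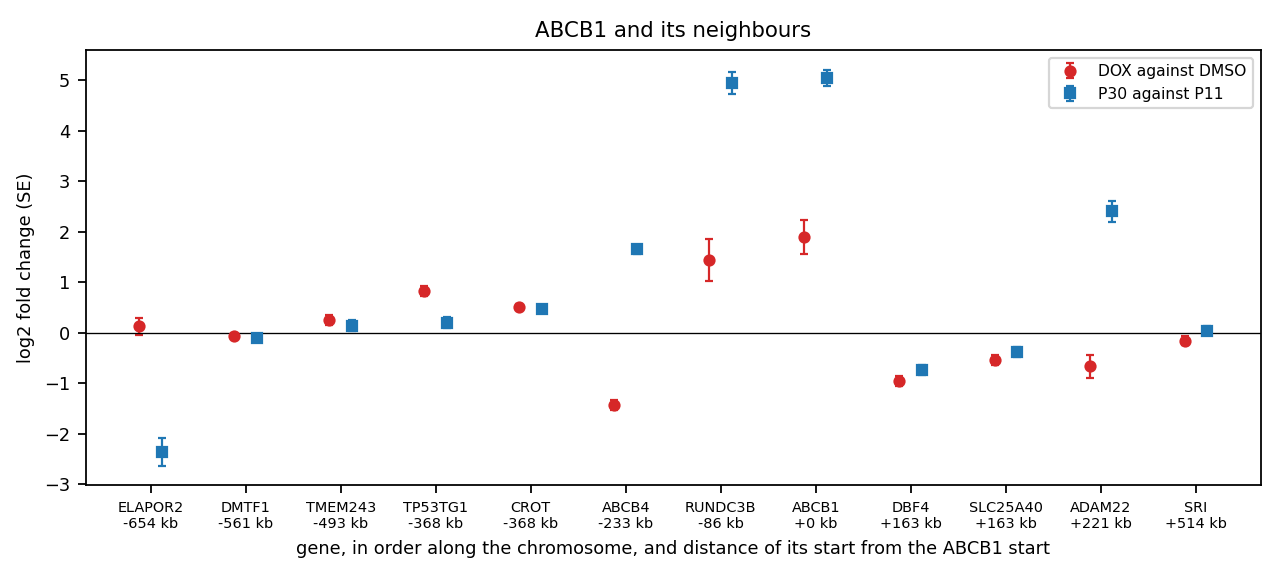
Log2 fold change with its standard error for ABCB1 and 11 neighbours, in order of their start along the chromosome with the distance from the ABCB1 start in kb, doxorubicin against DMSO as red circles and P30 against P11 as blue squares. ABCB1 and RUNDC3B lie near 5 at P30 and between 1 and 2 with doxorubicin, ABCB4 and ADAM22 lie on opposite sides of 0, and CROT has nearly the same value in both.

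The widest differences among protein-coding genes without an overlap had a positive side made mostly of genes that late passage lowered. CNTN3, a contactin, had 29.7, 26 and 27.1 CPM with doxorubicin against 31.7, 35.4 and 30.4 CPM with DMSO, and 2.87, 2.42 and 2.79 CPM at P30 against 30.1, 27.8 and 28.3 CPM at P11, a difference of 3.19 ± 0.14 (adjusted p = 1.7e-18). Its small fall with the drug was lost without doxorubicin replicate 2 or DMSO replicate 2 (adjusted p up to 0.13). CTHRC1, a secreted collagen triple helix protein, had effects of -0.23 with doxorubicin, not called without doxorubicin replicate 1, and -3.10 at P30. DENND2A, OLFML1, NFE2L3 and AJAP1 showed the same order, with P30 effects from -3.98 to -2.67. KCNJ2, an inward rectifier potassium channel, had 41, 39.9 and 36.3 CPM with doxorubicin against 25.7, 23.3 and 24.9 CPM with DMSO, and 2.26, 3.05 and 2.01 CPM at P30 against 12.3, 9.36 and 11.6 CPM at P11, a rise with the drug and a fall at P30. On the negative side A2M, the protease inhibitor alpha-2-macroglobulin, had 438, 411 and 459 CPM with doxorubicin against 612, 645 and 597 CPM with DMSO, and 400.3, 400.1 and 450.3 CPM at P30 against 38.9, 35 and 39.4 CPM at P11, a small fall with doxorubicin and a rise of 11-fold at P30. GPC4, a cell surface heparan sulfate proteoglycan, fell by 1.38 with the drug and rose by 3.04 at P30.

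TRIM55, PCDH7, B3GALT2 and LYPD1 rose with doxorubicin and fell at P30, as did POSTN and HAPLN1. PCDH7, a protocadherin, had 11.1, 12.4 and 13.3 CPM with doxorubicin against 5.41, 4.49 and 4.34 CPM with DMSO, and 3.31, 3.21 and 3.95 CPM at P30 against 8.62, 10.9 and 9.8 CPM at P11, with no overlap in either pair. Genes that moved alike by the fold and had no called difference included RDH10, the retinol dehydrogenase, with 183, 206 and 169 CPM with doxorubicin against 39.5, 38.6 and 38.6 CPM with DMSO, and 198, 194 and 199 CPM at P30 against 41.9, 43.3 and 42.2 CPM at P11. It rose 4.78-fold and 4.63-fold, and the difference was 0.04 ± 0.09 (adjusted p = 0.79). LRATD2, APLP1, OLR1 and LIPH also rose in both, by 2.78, 2.51, 2.42 and 1.87 with doxorubicin and by 2.56, 2.35, 2.93 and 2.32 at P30. DMKN, dermokine, had 21.2, 20.1 and 19.6 CPM with doxorubicin against 98.4, 89.7 and 104 CPM with DMSO, and 3.09, 3.42 and 2.63 CPM at P30 against 16.5, 14 and 13.5 CPM at P11, falls of 4.8-fold and 4.73-fold with a difference of -0.02 ± 0.19. GPM6B, RNF144A, TMEM35A, TM4SF1 and TEX29 fell in both with differences between -0.24 and 0.46, none called. The genes that moved alike were picked for calls in the same direction with no called difference. A missed threshold does not show that 2 effects are equal.

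**Figure D5:**
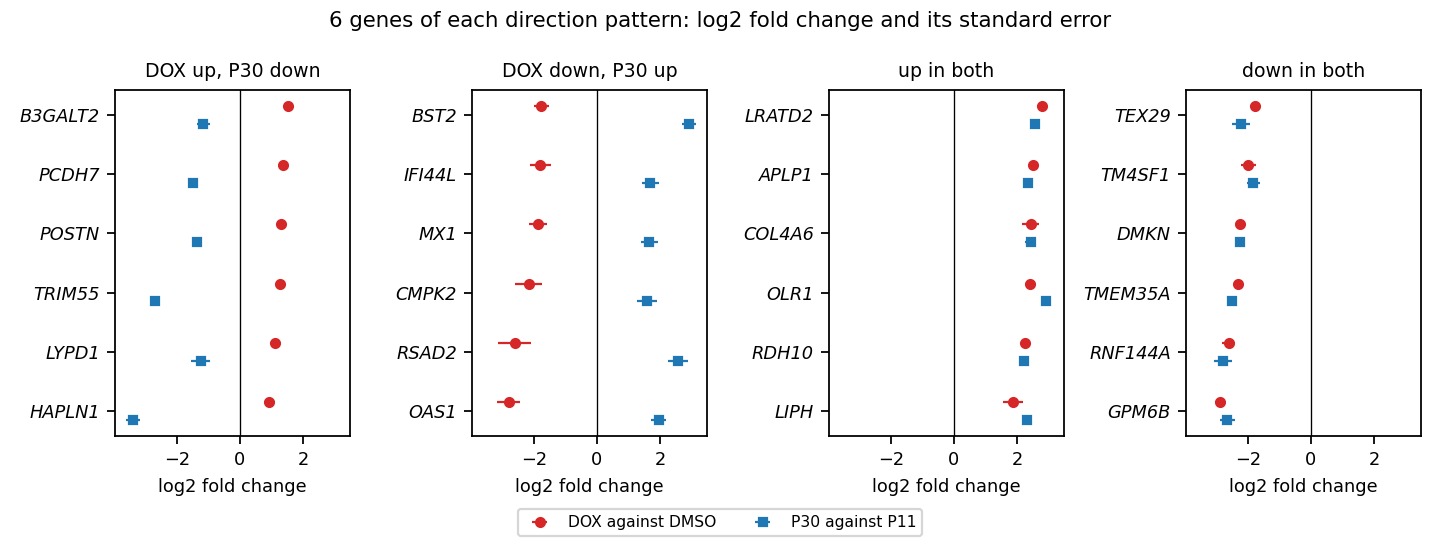
Log2 fold change with its standard error for 6 genes of each direction pattern, doxorubicin against DMSO as red circles and P30 against P11 as blue squares. The directions follow from how the genes were picked. The first 2 panels needed opposite calls, and the last 2 needed calls in the same direction with no called difference.

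The values at the later passage P33, set beside P30 against the same P11 libraries, are set out for several groups. The median effect of the G2 and M list was -2.17 with doxorubicin, -1.07 at P30 and -0.47 at P33. For interferon-stimulated genes the medians were -0.61, 0.71 and 0.62, for cholesterol genes -0.48, -1.21 and -1.28, and for histones 1.75, 1.21 and 1.65. For the p53 targets of arrest and feedback the medians were 0.66, -0.01 and 0.52. Contractile genes had medians of -0.03, 0.23 and -0.56, with 14 rising and 5 falling at P30 against 7 rising and 18 falling at P33. YAP and TAZ targets had medians of 0.19 with doxorubicin and 0.44 at P30, with 17 rising and 1 falling at P30 and 9 rising and 7 falling at P33. Cytokines and growth factors of the SASP had -0.06, 0.44 and 1.12, and cytosolic ribosomal proteins -0.04, -0.17 and -0.58. MMP3 had effects of 1.29, 0.11 and -0.34, and IL1A of 1.35, -0.40 and 2.49. CXCL8 had -1.52, 1.18 and 3.20. The P30 and P33 values share their P11 libraries and are only set side by side.

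Gene span had a weak rank correlation with either effect, while the shares of genes called higher were larger among the longest genes than among the shortest. Over 8617 protein-coding genes without an overlap, the Spearman correlation with span was 0.0508 for the doxorubicin effect, 0.061 for the P30 effect and -0.0204 for their difference, as descriptions across genes. In the fifth of longest genes, from 77.4 kb, the difference was called higher for 18.6% and lower for 25.6%, against 12.9% and 15.2% in the fifth of shortest genes. By the same split the doxorubicin effect was called higher for 23.4% of the longest and 13.6% of the shortest genes, and the P30 effect for 31.2% and 18.6%. Of the markers of other cell types, CLDN1, a claudin of epithelial junctions, rose in both and further with doxorubicin, with 8.07, 7.98 and 7.03 CPM with doxorubicin against 1.4, 1.7 and 1.58 CPM with DMSO, and 4.81, 4.95 and 4.88 CPM at P30 against 2.98, 2.71 and 2.28 CPM at P11. Summed keratinocyte markers were 369 to 458.2 CPM with doxorubicin and 342 to 395.2 CPM with DMSO, against 271.4 to 298.1 CPM at P30 and 347.3 to 349.1 CPM at P11, nearly all of it the desmosome gene DSP.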

How the data were processed

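RNA-seq gene counts of 21 libraries of BJ fibroblasts in 7 groups of 3 were used, and the contrast rests on 12 of them. Per the labels' protocols, poly(A) RNA was reverse transcribed with random hexamers, ligated to adaptors, amplified with 18 PCR cycles and sequenced in pairs. The submitters' processing notes name FastQC 0.11.9, cutadapt 3.3, HISAT2 2.1.0, SAMtools 1.11, Subread featureCounts 2.0.1, DESeq2 1.34.0, hg38 and GRCh38.p13. The values are whole-number read counts per gene as deposited by the authors, not normalized; the sources do not state whether strand was used in counting.

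edgeR 4.0.16 (R 4.3.3) was fitted to all 21 libraries with a mean per group, TMM scaling, a minimum count of 10 by filterByExpr (16821 of 61544 genes kept) and the quasi-likelihood test. Standard errors are the absolute log2 fold change divided by the square root of F. Alternatives used DESeq2 1.42.0 and limma 3.58.1. The common biological coefficient of variation, a single value shared by all genes, was 5.48%. Tested on simulated data with 200 of 16821 genes changed, the difference of the effects recovered 69% of 2-fold and 78% of 4-fold changes. Of the calls made there, 3.92% were false. In the data 4917 differences were called, so these rates belong to the simulated setting and not to the reported contrast.

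The passage, the gene lists and the rules were chosen with earlier results of these data known. Named genes are a senescence panel, the 12 largest differences in each direction among protein-coding genes without an overlap, up to 4 differing and 2 alike members of each list, and 6 genes of each direction pattern. Alike members, and the pattern genes that rose or fell in both, were taken only where the difference was not called. Named genes needed at least 5 CPM in the highest group and 1 CPM in the higher group of each pair, outside the panel. Further cell type markers and genes beside ABCB1 are given outside these rules, some of them at lower levels. Results for a few genes are not reported here.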

Additional observations from a re-analysis of the deposited data

How the results depend on the processing

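No called effect of a named gene, and no count over all genes, changed direction under the alternatives run, which were DESeq2's size factors, TMM within each part of the table, no count filter, a filter within each part, leaving out overlapping genes, only the 12 libraries, DESeq2's Wald test, limma-voom, the replicate number as a block, and leaving out each library. Values near 0 that were not called did change sign, among them the differences of BLM (to -0.01), DMKN (to 0.07), GPM6B (to 0.11), POLE2, ORC1, RDH10, RNF144A, TM4SF1, ANKRD1, TRIM22, COL4A6 and SREBF1. Counts over all genes moved past 1.5 times only when same-strand overlapping genes were left out, where fewer genes (10855) were tested: 1508 differences were called higher with doxorubicin, 1862 doxorubicin effects higher, 2469 P30 effects lower, and 185 genes rose with doxorubicin and fell at P30. Leaving out single libraries gave 2033 to 2252 differences called higher and 2392 to 2628 lower. The doxorubicin effect then had 2359 to 2841 calls higher and 3065 to 3481 lower, and the P30 effect 3197 to 3600 higher and 3362 to 3872 lower. Under the same settings 1097 to 1228 genes rose in both, 1549 to 1671 fell in both, 248 to 299 rose with doxorubicin and fell at P30, and 405 to 462 did the reverse. Of the 4917 differences called, 86.6 to 99.2% were shared with each setting that kept overlapping genes. With the replicate block, 4873 differences were called, and 4919 with the replicate block within each part. Same-numbered libraries had deviations that correlated between -0.0772 and 0.0415, so the numbers were not taken as pairs. Within gene lists 108 counts moved past 1.5 times, ribosomal proteins and histones among them as given in the report. Among named genes, 64 of the values under alternatives lost the call of the difference and 48 gained it. Low genes such as SPC25, CDC20 and ABCB1 rest on few reads, so their fold changes are imprecise.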
